A study of Homo sapiens with 4 samples.

Results

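The expression of 9 genes of the Wnt pathway was followed in OVSAYO cells, a human line grown from an ovarian clear cell carcinoma (CCC): LEF1, AXIN2, TCF7, NKD1, RNF43, ZNRF3, LGR5, NOTUM and APCDD1. Their probes were found by gene symbol, through the RefSeq accession that the array design gives each probe, and the list was chosen by the rise of several of these genes on the Sp1-si array against the NS-si array, so that comparison is given below as a description. The 9 genes had 12 probes and 21 spots, of 17721 named genes, 41000 probes and 43376 non-control spots on each array. RNA was measured on 4 single-colour Agilent arrays, 1 for each condition. NS-si cells received a non-specific control siRNA and Sp1-si cells siRNA against the transcription factor Sp1, both by lipofection, and were cultured in RPMI1640 for 40 h by the labels, whereas a legend of the study gives a shorter time. The labels call the Sp1 siRNA a pool, and the study's methods list an Sp1 siRNA of another supplier without that word. The methods also state that more than 1 siRNA sequence was used for each target, and do not say which served on the arrays. NS-si CoCl2 and Sp1-si CoCl2 cells received the same siRNAs and were then kept in fresh medium with 0.5 mM CoCl2, a chemical mimic of hypoxia, for 4 h. All 4 conditions are transfected cells of a single line. Because these arrays had 1 Sp1 siRNA reagent by the labels, effects through Sp1 and through other transcripts it may hit cannot be told apart. With 1 array per condition there was no replicate, no test was run, and every ratio below compares 1 array with 1 array.

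Canonical Wnt signals act through β-catenin. Without a Wnt ligand, a complex built on the scaffolds Axin and APC marks β-catenin for destruction. With a ligand bound to a Frizzled receptor and its LRP co-receptor, β-catenin is spared, enters the nucleus and works with TCF/LEF factors on target genes. Many of these targets dampen the signal in turn. AXIN2 rebuilds the destruction complex, RNF43 and ZNRF3 are membrane ubiquitin ligases that remove Frizzled from the surface, NOTUM is a secreted enzyme that strips the lipid from Wnt ligands, NKD1 binds Dishevelled, and APCDD1 is a membrane protein that binds Wnt and LRP. LGR5, the R-spondin receptor known as a stem cell marker, counters the ubiquitin ligases. LEF1 and TCF7 encode TCF/LEF factors and are themselves targets in many tissues.

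The 75th percentile of the signal was 1142 on the NS-si array, 1100 on Sp1-si, 977 on NS-si CoCl2 and 1285 on Sp1-si CoCl2, and from 30994 to 32433 probes per array were well above background, which is the scanner software's call for a spot brighter than its surroundings. All 8 markers of ovarian CCC and epithelium summed here, NAPSA and PAX8 among them, were detected well above background on each of the 4 arrays, and their summed signal was 364974 to 439581. Of these, NAPSA had signals of 5131 on NS-si, 984 on Sp1-si, 3835 on NS-si CoCl2 and 965 on Sp1-si CoCl2, and CDH1, the gene of E-cadherin, had 39380, 12931, 42491 and 16848, so both were lower on the silenced arrays. The part of this in the results was not tested. Of the other cell types looked for, the defining markers PTPRC of leukocytes, COL3A1 and PDGFRB of fibroblasts, and PECAM1, CDH5 and KDR of endothelium were well above background on no array. The summed signal of the 4 fibroblast markers on the array, 2 of which were well above background throughout, was lower on the arrays of Sp1-silenced cells, at 28.3 on Sp1-si and 37.1 on Sp1-si CoCl2 against 114 on NS-si and 94.0 on NS-si CoCl2, and its part in the results was not tested. The target of the siRNA fell as labelled: the SP1 probe with 10 spots had a log2 ratio of -3.77 (spot SD 0.11) in Sp1-si over NS-si cells and -3.87 in Sp1-si CoCl2 over NS-si CoCl2 cells.

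Sp1 binds GC boxes and TCF/LEF factors bind a T-rich motif, so promoter sequences of LEF1 and TCF7 are shown with both kinds of letters marked. RefSeq windows on GRCh38.p14, from 250 bases before to 50 bases after a transcription start, were given for 4 of the 9 genes, with 6 windows in all. Capitals mark GGGCGG or its complement CCGCCC, called a GC box here. They also mark, on either strand, CTTTGAA or its variants CTTTGAT and CTTTGTA, and lastly the variant CTTTGTT, each called a TCF/LEF match. The windows shown are those of LEF1 on the minus strand (chr4:108166252-108166551) and of TCF7 on the plus strand, upstream (chr5:134115363-134115662) and downstream (chr5:134123368-134123667).
LEF1: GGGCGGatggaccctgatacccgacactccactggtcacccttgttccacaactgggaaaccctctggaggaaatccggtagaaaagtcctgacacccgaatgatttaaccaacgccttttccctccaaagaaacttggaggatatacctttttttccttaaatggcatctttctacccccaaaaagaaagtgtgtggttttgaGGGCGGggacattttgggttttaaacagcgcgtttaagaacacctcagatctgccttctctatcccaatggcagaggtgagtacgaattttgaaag
TCF7 upstream: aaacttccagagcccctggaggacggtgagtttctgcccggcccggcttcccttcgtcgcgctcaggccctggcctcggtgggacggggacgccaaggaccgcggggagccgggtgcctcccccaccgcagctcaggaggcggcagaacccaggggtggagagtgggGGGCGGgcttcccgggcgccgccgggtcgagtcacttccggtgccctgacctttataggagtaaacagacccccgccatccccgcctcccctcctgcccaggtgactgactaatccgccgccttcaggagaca
TCF7 downstream: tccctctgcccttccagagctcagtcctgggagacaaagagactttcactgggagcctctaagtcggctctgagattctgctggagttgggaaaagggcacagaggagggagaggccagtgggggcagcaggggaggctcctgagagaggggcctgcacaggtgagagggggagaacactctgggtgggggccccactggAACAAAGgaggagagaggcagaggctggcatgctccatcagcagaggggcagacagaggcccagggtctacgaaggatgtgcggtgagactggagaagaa
The LEF1 window held 2 GC boxes, at positions -250 and -46 from the start, and no TCF/LEF match. The upstream TCF7 window held 1 GC box, at -83, and the downstream one held no GC box but 1 TCF/LEF match, AACAAAG on this strand, at -50. Neither window of RNF43 held either motif, and the window of APCDD1 held 2 GC boxes. Of 35116 windows of this length in the table, 45.0% held a GC box and 13.8% a TCF/LEF match, and the 2 motifs did not overlap in the windows shown. These matches describe the letters of each window, and no binding was measured on the arrays.

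Values are given first as the signal that the authors deposited and then as a log2 ratio between arrays, each scaled to its 75th percentile. The spot SD beside a ratio comes from a probe's own 10 spots where it has 10, and otherwise the median SD of the 50 probes with 10 spots of nearest signal, so it covers the spread on the array and none between cultures. A probe not well above background on 1 array has only a bound there, and on both it has no ratio. Levels are compared within a probe only.

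LEF1 had the largest ratio of any measured probe in Sp1-si over NS-si cells on the main scale. Its probe A_24_P20630 had a signal of 37.6 on NS-si, 1188 on Sp1-si, 32.8 on NS-si CoCl2 and 1109 on Sp1-si CoCl2. Both arrays of Sp1-silenced cells stood far above both control arrays, and all 4 spots were well above background. The log2 ratio was 5.04 (spot SD 0.061) without CoCl2, rank 1 of 31437 measured probes, and 4.68 (spot SD 0.061) with CoCl2, rank 1 of 30514. These are 32.8-fold and 25.7-fold. Another background correction, normexp, was run with an offset, a constant of 50 added to every signal. Such a constant by itself makes the ratios of dim probes smaller in size. With normexp the log2 ratios of LEF1 A_24_P20630 were 3.60 and 3.16, below those of AXIN2 A_23_P148015, 4.25 and 3.99. In RNA of a whole culture, more RNA per cell and more cells with the transcript cannot be told apart. A second LEF1 probe, A_23_P213045, was at or near background on each array, never well above it, with signals of 1.86, 6.67, 2.64 and 8.26 in the same order, and so gave no ratio.

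TCF7, which encodes TCF1, is the only gene of the 9 whose probe had 10 spots. Its signal was 25.9 on NS-si (spots from 24.2 to 28.6), 117 on Sp1-si (109.9 to 129.2), 29.0 on NS-si CoCl2 (25.6 to 31.6) and 159 on Sp1-si CoCl2 (149.0 to 181.3). No spot of a control array reached the lowest spot of a Sp1-si array. The log2 ratio was 2.23 (spot SD 0.062) without CoCl2 and 2.06 (spot SD 0.16) with CoCl2. With normexp they were 1.11 and 0.95, the latter below a log2 ratio of 1.

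**Figure D1:**
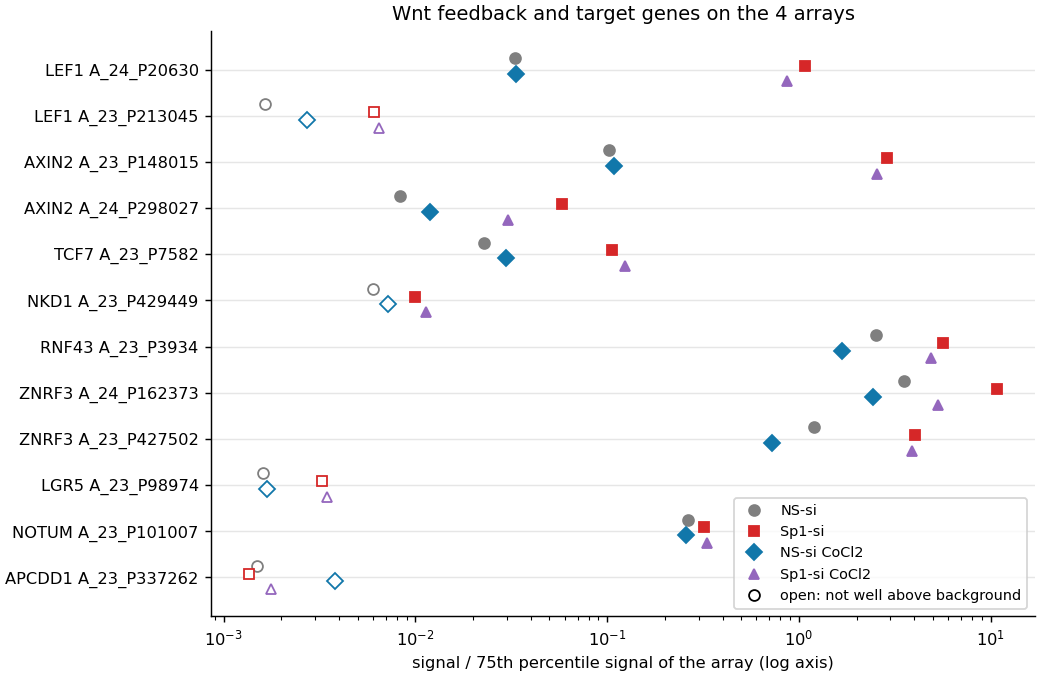
Signal of each probe of the 9 genes divided by the 75th percentile signal of its array, on a log axis, with 1 point per array and open points where the probe was not well above background. The points of Sp1-si and Sp1-si CoCl2 lie to the right of those of NS-si and NS-si CoCl2 for LEF1 A_24_P20630, AXIN2, TCF7, RNF43 and ZNRF3.

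AXIN2 followed LEF1 closely. The signal of its probe A_23_P148015 was 116 on NS-si, 3158 on Sp1-si, 106 on NS-si CoCl2 and 3295 on Sp1-si CoCl2. The 2 silenced arrays were again far above the 2 control arrays. The log2 ratio of 4.82 (spot SD 0.036), or 28.2-fold, was the second highest of all measured probes without CoCl2, and that of 4.56 (spot SD 0.040), or 23.6-fold, was rank 3 with CoCl2. The other AXIN2 probe, A_24_P298027, had signals of 9.54, 63.8, 11.7 and 38.9 in the same order of arrays. It was well above background on all 4 and moved the same way by less, with log2 ratios of 2.80 (spot SD 0.17) and 1.34 (spot SD 0.17). With normexp these were 0.92 and 0.15, below a log2 ratio of 1.

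The membrane ubiquitin ligases were well above background in the control cells too, and their ratios were smaller than those of LEF1. RNF43 had a signal of 2874 on NS-si, 6199 on Sp1-si, 1645 on NS-si CoCl2 and 6252 on Sp1-si CoCl2, with log2 ratios of 1.16 (spot SD 0.027) and 1.53 (spot SD 0.031). Its level was lowest on NS-si CoCl2. After scaling it was lower on Sp1-si CoCl2 than on Sp1-si, at a log2 ratio of -0.21 (spot SD 0.027), which became 0.01 without scaling. ZNRF3 probe A_24_P162373 read 4036, 11890, 2387 and 6845 in the same order, with log2 ratios of 1.61 (spot SD 0.026) and 1.12 (spot SD 0.031). ZNRF3 probe A_23_P427502 read 1363, 4415, 709 and 4980, with log2 ratios of 1.75 (spot SD 0.029) and 2.42 (spot SD 0.033). The ZNRF3 probes thus shared the direction of the rise and differed in its size by more than the spread between spots, by less without CoCl2 than with it.

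The other 4 genes were not called past a log2 ratio of 1. NKD1 had signals of 6.88, 10.9, 7.06 and 14.5 and was well above background only on the 2 Sp1-si arrays, so it was at least 1.53-fold higher without CoCl2 and at least 1.56-fold higher with CoCl2. NOTUM was well above background throughout, at 302 on NS-si, 353 on Sp1-si, 251 on NS-si CoCl2 and 424 on Sp1-si CoCl2. Its log2 ratios of 0.28 (spot SD 0.052) and 0.36 (spot SD 0.045) were small beside those of LEF1 or AXIN2, though larger than the spread between spots. LGR5, at 1.83, 3.58, 1.64 and 4.45, and APCDD1, at 1.69, 1.49, 3.72 and 2.26, were well above background on no array and gave no ratio. A signal of this size does not show that a transcript is absent.

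Nearest to the threshold, RNF43 without CoCl2 (1.16) and ZNRF3 A_24_P162373 with CoCl2 (1.12) lay just inside it. The lower bounds of NKD1, at log2 ratios of 0.61 and 0.64, did not reach it, which leaves the side of its true ratio unknown, and NOTUM lay outside.

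**Figure D2:**
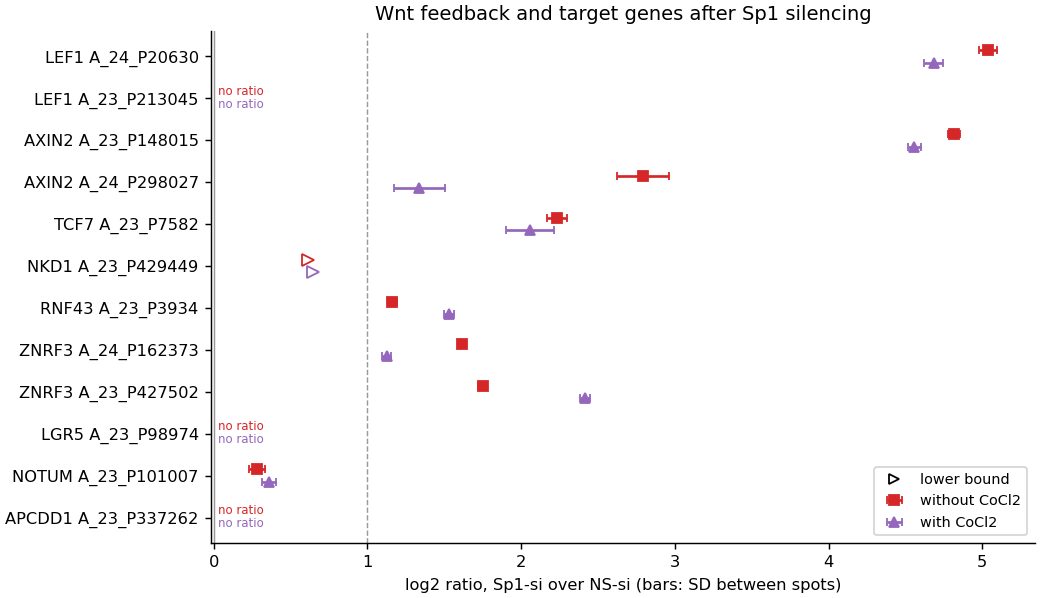
Log2 ratio of Sp1-si over NS-si cells for each of the 12 probes, without CoCl2 (squares) and with CoCl2 (triangles), with bars of 1 spot SD, open triangles for lower bounds and the dashed line at a log2 ratio of 1. LEF1 A_24_P20630 and AXIN2 A_23_P148015 lie above 4.5 in both comparisons, while NOTUM stays below 0.5.

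Past a log2 ratio of 1 were 7 of the 12 probes in Sp1-si over NS-si cells, all of them higher, and 7 of 12 in Sp1-si CoCl2 over NS-si CoCl2 cells, again all higher. Of the 12, 9 could be called in each comparison, since at least the higher array was well above background, and NKD1 could be called only because of its signal in Sp1-silenced cells. Over all probes that could be called, 5.50% were past this ratio in the higher and 5.88% in the lower direction without CoCl2, and 6.31% and 9.64% with CoCl2. By genes, each represented by its brightest probe, LEF1, AXIN2, TCF7, RNF43 and ZNRF3 were past it in both comparisons, 5 of the 9 genes. LGR5 and APCDD1, among the 9, could not be called. Of the 15197 genes on the array that could be called without CoCl2, 6.20% were higher and 6.19% lower. With CoCl2 the shares were 7.19% and 8.03% of 15071. Because the genes were selected on this ratio, these shares only set the scale. The median log2 ratio of the 6 genes measured on both arrays was 1.92 without CoCl2 and 1.80 with CoCl2, beside medians over all measured probes of -0.02 and -0.06. The 2 comparisons use different arrays, and 1034 of 30234 probes well above background on all 4 arrays, or 3.42%, were higher by at least this ratio in both.

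**Figure D3:**
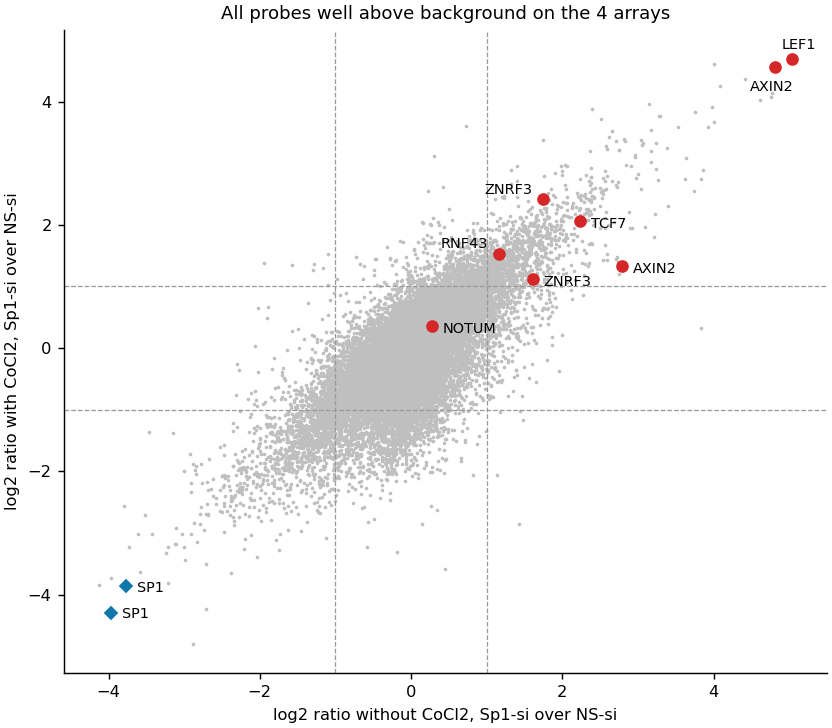
Log2 ratio of Sp1-si over NS-si cells without CoCl2 (horizontal) and with CoCl2 (vertical) for the 30234 probes that all 4 arrays measured well above background, with the probes of the Wnt genes in red, SP1 as blue diamonds and dashed lines at log2 ratios of 1 and -1. LEF1 and AXIN2 A_23_P148015 lie at the far end of the upper right, near 5.04 and 4.82 on the horizontal axis.

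For every measured probe of these genes the CoCl2 ratios were smaller in size than both Sp1 ratios on this scale. In NS-si cells, none of the 8 probes that could be called were past a log2 ratio of 1 in either direction, where over all probes 4.53% were higher and 4.34% lower. In Sp1-si cells, 1 of 9 was past it, ZNRF3 A_24_P162373 at -1.02, a call lost with median scaling and without scaling, where over all probes 3.72% were higher and 6.17% lower. These shares depend on the scaling: without any scaling between arrays the medians of all probes shifted by 0.40 for the Sp1-si over NS-si ratio with CoCl2, by -0.23 for the CoCl2 ratio in NS-si cells and by 0.22 in Sp1-si cells. Of the probes past the ratio, the higher ones then made up 76.1% in place of 39.6%, 28.3% in place of 51.1% and 63.3% in place of 37.6%. Median scaling gave 50.3% and 48.9% for the first and the last of these.

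In control cells, the ubiquitin ligases had the lowest CoCl2 ratios of the set. In NS-si cells the log2 ratio with over without CoCl2 was -0.58 for RNF43 (spot SD 0.031), -0.53 for ZNRF3 A_24_P162373 (spot SD 0.030) and -0.72 for ZNRF3 A_23_P427502 (spot SD 0.039). All of these were larger than the spread between spots. In Sp1-si cells they were -0.21 (spot SD 0.027), -1.02 (spot SD 0.027) and -0.05 (spot SD 0.028). The ZNRF3 probes therefore differed from each other in Sp1-silenced cells by more than the spread between spots.

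LEF1 and AXIN2 A_23_P148015 hardly moved with CoCl2 in NS-si cells, with log2 ratios of 0.03 (spot SD 0.13) and 0.09 (spot SD 0.070). In order of level, LEF1 was highest in Sp1-si cells, then in Sp1-si CoCl2 cells (log2 ratio -0.32, spot SD 0.032), and the 2 control arrays did not differ beyond the spread between spots. For AXIN2 A_23_P148015 the step from Sp1-si to Sp1-si CoCl2 cells was -0.16 (spot SD 0.029), and it became 0.06 without scaling between arrays. TCF7 had CoCl2 log2 ratios of 0.39 (spot SD 0.17) in control and 0.22 (spot SD 0.073) in Sp1-silenced cells. Those of NOTUM were -0.04 (spot SD 0.048) and 0.04 (spot SD 0.043), and that of NKD1 in Sp1-si cells was 0.19 (spot SD 0.25), each within 1 spot SD of 0.

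**Figure D4:**
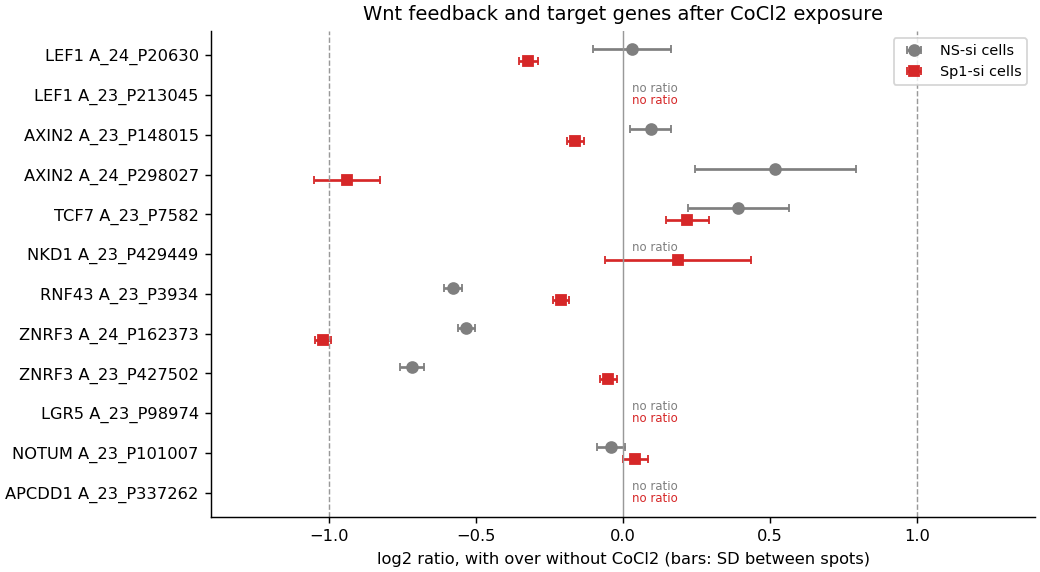
Log2 ratio of cells with over without CoCl2 for each of the 12 probes, in control and Sp1-silenced cells, with bars of 1 spot SD and dashed lines at log2 ratios of 1 and -1. ZNRF3 A_24_P162373 in Sp1-si cells, at -1.02, is the only point past a dashed line.

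The CoCl2 ratio in Sp1-silenced cells minus that in control cells says whether silencing and CoCl2 added up on the log2 scale, and it could not be tested with 1 array per condition. On the main scale this difference was largest in size for AXIN2 A_24_P298027, a probe near background in control cells, at -1.46 (spot SD 0.22). The difference for that probe stayed negative without scaling, at -1.01, and with normexp, at -0.77. It was positive for RNF43, at 0.37 (spot SD 0.043), and for ZNRF3 A_23_P427502, at 0.67 (spot SD 0.043), and remained so without scaling, at 0.82 and 1.12, the latter then larger in size than that of AXIN2 A_24_P298027. For ZNRF3 A_24_P162373 it was -0.49 (spot SD 0.041), but -0.04 without scaling. For LEF1 it was -0.35 (spot SD 0.085), for AXIN2 A_23_P148015 -0.26 (spot SD 0.055) and for TCF7 -0.17 (spot SD 0.17), and all 3 changed sign without scaling, to 0.10, 0.19 and 0.28. NOTUM was at 0.08 (spot SD 0.071), and at 0.53 without scaling.

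Genes with the pattern most like that of LEF1 were sought among the 14283 genes that all 4 arrays measured well above background, by the Euclidean distance between log2 values centred on their mean over the 4 arrays. AXIN2 was nearest to LEF1, at a distance of 0.21, and LEF1 nearest to AXIN2. Next came MMP26, a matrix metalloproteinase (0.49 from LEF1 and 0.43 from AXIN2), and PIGR, the receptor that carries polymeric immunoglobulins across epithelia (0.77 and 0.59). IDO1, a tryptophan-degrading enzyme, lay at 0.86 and 0.91, and TREM1, a receptor best known from myeloid cells, at 1.03 and 0.85. The other members were farther off, with TCF7 at rank 93 from LEF1, RNF43 at 377, ZNRF3 at 386 and NOTUM at 3305. Such a distance weighs the size of a ratio as well as the shape of the pattern, and over 4 arrays it is a description.

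The other genes of the pathway were taken from 5 lists, 97 of whose genes were on the array. Past a log2 ratio of 1 in Sp1-si over NS-si cells were 18 higher and 6 lower of the 87 that could be called, and with CoCl2 18 higher and 8 lower of 84. The shares over all genes that could be called, given above, were 6.20% higher and 6.19% lower without CoCl2, and 7.19% and 8.03% with CoCl2. The list of the destruction complex and Dishevelled had 1 of 13 higher and 0 lower without CoCl2 (median log2 ratio 0.07), and 2 of 13 with CoCl2 (-0.04). Among these, each by its brightest probe only, CTNNB1, the gene of β-catenin, had log2 ratios of 0.07 and 0.32, APC -0.80 and -0.23, and AXIN1 0.47 and 0.02. The gene past the ratio in both comparisons was BTRC, the F-box protein that hands β-catenin to the proteasome, at 1.11 and 1.47, whereas its second probe gave 0.37 and 0.66. With CoCl2, AMER1, which binds APC, was also past it, at 1.43 against 0.50 without. AXIN1, whose product is the related scaffold, was not past the ratio in either comparison.

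Receptors, co-receptors and R-spondins had 3 of 13 higher without CoCl2 (median -0.0036) and 2 of 13 with CoCl2 (-0.10), and none lower. Of all genes that could be called, 6.20% were higher and 6.19% lower without CoCl2, and 7.19% and 8.03% with CoCl2. The receptor FZD10 had signals of 29.1, 345, 49.4 and 435 on NS-si, Sp1-si, NS-si CoCl2 and Sp1-si CoCl2, with log2 ratios of 3.62 and 2.74, and FZD2 had 1.85 and 1.79. FZD1 was past the ratio only without CoCl2, at 1.12 against 0.79. Nuclear factors had 2 of 13 higher in each comparison and none lower (medians 0.45 and 0.22). TLE3, a Groucho-type corepressor, had 1.32 and 1.46, and its second probe 0.94 and 1.40. TCF7L2, the TCF factor of many epithelia, had -0.22 and -0.24 by the brightest of its 3 probes, and its other probes are not given here. Neither value was past the ratio that LEF1 and TCF7 passed. TCF7L1 was past it only without CoCl2 (1.24 and 0.39), and HBP1, a repressor, only with CoCl2 (0.98 and 1.35).

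Other feedback inhibitors had 5 of 12 higher and 0 lower without CoCl2 (median 1.09 over 10 measured on both arrays). With CoCl2, 6 of 11 were higher and 1 lower (median 1.33). Beside these stand the shares over all genes that could be called, 6.20% higher and 6.19% lower without CoCl2, and 7.19% and 8.03% with CoCl2. DKK1, a secreted blocker of LRP, had signals of 39722 on NS-si, 89712 on Sp1-si, 6698 on NS-si CoCl2 and 47799 on Sp1-si CoCl2. It was higher in Sp1-silenced cells (log2 ratios 1.23 and 2.44) and lower after CoCl2 in both kinds of cells (-2.34 and -1.13). SFRP1, which binds Wnt ligands, had 1.59 and 1.67, and KREMEN1 and KREMEN2, the Dickkopf receptors, had 1.67 and 1.38, and 1.22 and 1.52, although a second KREMEN1 probe gave 1.50 and 0.64. SFRP2 was past the ratio only with CoCl2 (0.95 and 1.28). WNT11, a ligand that the list also holds, had 3.87 and 2.90 by the probe brighter on the mean of the 4 arrays. The other probe gave -0.03 and 0.50. On NS-si the first probe was the dimmer one, with a signal of 11.7 against 55.8. It thus stands for WNT11, and counts among the 5 and 6 higher genes, through its signal in Sp1-silenced cells. NKD2, the relative of NKD1, went the other way with CoCl2 by its brightest probe, at -0.13 and -1.58.

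Other Wnt targets were mixed, with 7 higher and 6 lower of 35 without CoCl2 (median -0.08) and 6 higher and 7 lower of 33 with CoCl2 (0.07). Over all genes that could be called, the shares were 6.20% and 6.19%, and 7.19% and 8.03%. Higher in both comparisons were FGF9 (2.16 and 1.101), PPARD (1.84 and 1.93), the homeobox genes MSX1 (1.63 and 1.9997) and MSX2 (1.16 and 1.21), and the adhesion molecule L1CAM (2.36 and 2.64). A second PPARD probe gave 1.06 and 0.28. TNFRSF19 was at least 3.68-fold higher without CoCl2 and had a log2 ratio of 2.26 with CoCl2, while its second probe was at least 3.40-fold lower with CoCl2. Lower in both were BIRC5, the mitotic and anti-apoptotic protein survivin (-2.35 and -2.74), NRCAM (-1.24 and -1.26), SOX9 (-1.12 and -1.30) and EPHB2 (-1.06 and -1.18). Past the ratio in a single comparison were BMP4 (1.19) and CD44 (-1.09) without CoCl2, and JUN (-1.96) and EDN1 (-1.33) with CoCl2. GREM1 had signals of 77.2, 1.41, 3.05 and 2.17 on the 4 arrays in the usual order and was well above background only on NS-si, so it was called lower without CoCl2 and gave no ratio with it. SP5, a member of the Sp family and a Wnt target, was chosen after its values were seen because its probes differed. Its brightest probe had log2 ratios of -0.19 and -1.83, while the other probes had 4.41 and 4.37, and 4.61 and 4.03. By the brightest probe SP5 was counted among the 7 lower genes with CoCl2 and in neither direction without it.

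**Figure D5:**
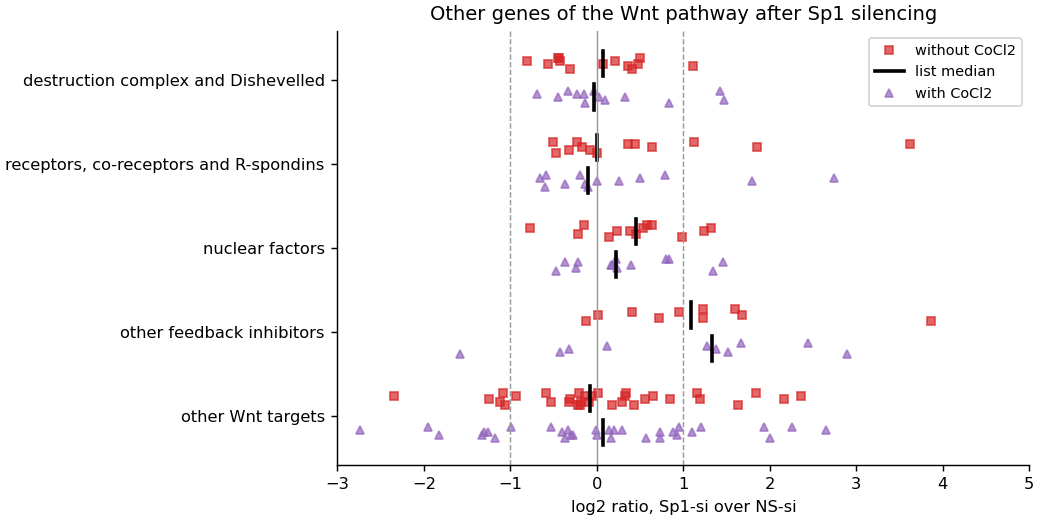
Log2 ratios of Sp1-si over NS-si cells for the genes of the 5 other Wnt lists, each by its brightest probe where both arrays measured it, with 1 point per gene, black bars at list medians and dashed lines at log2 ratios of 1 and -1. The feedback inhibitors have a median of 1.09 without CoCl2, against -0.08 for the other Wnt targets. The lists were chosen with earlier results of these data known.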

How the data were processed

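Each of the 4 arrays held OVSAYO RNA of 1 condition. The authors deposited intensities as Agilent Feature Extraction 10.5.1.1 processed signals, background-subtracted and detrended but not normalized between arrays, and the deposited value table equals them times 1 constant per array. Here, log2 intensity minus the 75th percentile of each array was used, as the mean of a probe's spots that were no outliers. A probe was well above background where at least 50% of its spots were. Symbols came from RefSeq accessions (28463 of 29877 spots with one matched). Genes were called past a log2 ratio of 1 or -1. The members and lists were chosen with earlier results of these data known. Named are all members, SP1, list genes past the ratio the same way in both Sp1 comparisons, and the 5 genes most like LEF1 and AXIN2. A gene stands for its brightest probe by the mean over the 4 arrays. Other list genes were named after their values were seen. The number of arrays limits the precision, and nothing gives the spread between cultures. Another marker gene of the CCC list is not reported here. The calling was tested on simulated data, with changes well past the threshold in probes well above background and with less noise than dim probes have. That run therefore does not show how calls behave near the threshold, near background or between cultures. Alternatives were other scalings, the value table, normexp with an offset of 50, outlier spots kept, and other filters and thresholds. Versions were Python 3.11.15, numpy 2.4.6, pandas 2.3.3, matplotlib 3.10.9, R 4.3.3 and limma 3.58.1.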

Additional observations from a re-analysis of the deposited data

Results flagged for a closer look

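Both AXIN2 probes had CoCl2 ratios of opposite sign in control and Sp1-silenced cells, and with 1 array per condition the difference was not tested. For A_24_P298027, a probe near background in control cells, the log2 ratio was 0.52 in control and -0.94 in Sp1-silenced cells, which differ by -1.4571. For A_23_P148015 it was 0.09 and -0.16, which differ by -0.2574, and both signs turned without scaling between arrays, to -0.13 and 0.06.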

How the results depend on the processing

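The 7 probes past a log2 ratio of 1 in each Sp1-si over NS-si comparison became 4 each at a log2 ratio of 2, and 6 and 5 with normexp, where AXIN2 A_24_P298027 fell to 0.92 and 0.15 and TCF7 to 1.11 and 0.95. They became 8 each at a log2 ratio of 0.5, and 9 and 10 without the filter on dim probes, 1 of the 10 being lower. With no scaling the count of the comparison with CoCl2 became 8, where over all probes 14.2% were higher. The CoCl2 count in NS-si cells, 0, became 1 without the filter on dim probes and 4 at a log2 ratio of 0.5. The count in Sp1-si cells, 1, became 2 at a log2 ratio of 0.5 and 0 at a log2 ratio of 2, with median scaling and with no scaling. No share over all probes is given for the other thresholds, without the filter or with normexp, so those counts only describe the members. The median ratio of the 6 genes, 1.92, became 1.87 with no scaling and 1.37 with normexp. LEF1 kept 3.60 and 3.16, and AXIN2 A_23_P148015 4.25 and 3.99, with normexp. The 24 list genes past the ratio became 17 with normexp. Of 231 single ratios under 7 settings, 136 moved by less than the spot SD, 95 by more, and 0 called ones changed sign; the cause was not tested. Normexp on the mean signal was not run, and the median signal was used, an alternative chosen after seeing the data. No paired analysis was possible because each condition has 1 array, so that the groups share a single replicate number, and no array could be left out. An additive fit of silencing and CoCl2 over the 4 arrays was not run. Signals near background limit LEF1 A_23_P213045, LGR5, APCDD1 and NKD1. They also limit AXIN2 A_24_P298027, at 9.54 on NS-si and 11.7 on NS-si CoCl2. The lowest signals well above background on those arrays were 7.39 and 6.93.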
